A study of Mus musculus with 3 samples.

Results

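The genes described here are 10 regulators of the G1 phase of the cell cycle: the D cyclins Ccnd1, Ccnd2 and Ccnd3, the kinases Cdk4 and Cdk6, the inhibitors Cdkn1a, Cdkn1b and Cdkn2c, and the transcription factors E2f1 and E2f2. They were chosen by name, and their probe sets were found through the platform's gene annotation. Of the 10, 9 had a probe set annotated to that gene alone, among 19938 genes measured on the arrays. Cdkn1a, an inhibitor induced by p53, has 1 probe set, which is annotated to a second gene as well, so no value is given for it.

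Gene expression was measured in mouse thymocytes, the T cell precursors that mature in the thymus, on Affymetrix whole-transcript arrays, with 1 array per genotype. The genotypes were wild type (12 weeks of age), β-catenin transgenic (16 weeks) and TCF-1-/-, that is TCF-1-deficient (8 weeks). The sources used here do not give the promoter that drives the transgene, the TCF-1 allele, the strain or the number of mice behind each array. By the series' design text, genes lower in TCF-1-/- and higher in transgenic thymocytes were of interest, as candidate targets of β-catenin acting with TCF-1. Without replicates no difference has an error or a test, and each value describes a single array. Age cannot be told apart from genotype.

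In G1, a D cyclin binds CDK4 or CDK6, and the complex phosphorylates the retinoblastoma protein and its relatives, which then release E2F factors to switch on genes of DNA replication. Inhibitors of the INK4 family, such as the product of Cdkn2c (p18), bind CDK4 and CDK6 alone, while those of the CIP/KIP family, such as the products of Cdkn1a (p21) and Cdkn1b (p27), bind cyclin-kinase complexes. In the thymus, cells divide rapidly after pre-T cell receptor signalling, when they pass from the CD4-CD8- double-negative (DN) to the CD4+CD8+ double-positive stage, and most double-positive cells are then quiescent. Cyclin D3 is the D cyclin best known for that expansion.

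The arrays differed in other ways that bear on the values. Of 13 measured double-positive markers, 11 were lower in TCF-1-/- thymocytes than in wild type by at least 2-fold and 0 were higher, and their summed linear signal was 0.374 times that of wild type. Of 11 genes listed for the DN3 stage, the double-negative stage of pre-T cell receptor selection, 7 were higher and 0 lower by that rule. Their summed signal was 3.70 times that of wild type. The list includes Cd44 and Kit, which are not specific to DN3. Cd44 went the other way, 1.87-fold lower (-0.91), and Kit differed by 0.21. Summed signals of the B lymphocyte, myeloid and γδ, innate-like and NK marker lists were 2.07, 3.52 and 4.08 times wild type. The myeloid sum rests on Ly86 (7.48 in wild type, 11.50 without TCF-1), and without that gene, left out after its value was seen, it was 1.54 times wild type. Without Cd79a the B lymphocyte sum was 1.73 times wild type, and without Gzma the γδ, innate-like and NK sum was 2.86 times. The median differences of these lists were 0.95, 0.21 and 0.55, and 2 of 9, 5 of 10 and 5 of 10 members were under the median level over genes on every array. Members higher by at least 2-fold numbered 3 of 9, 3 of 10 and 5 of 10, and 1 of the last list was lower. Of 9 markers of mature single-positive cells, 2 were lower by at least 2-fold, Cd69 (-2.24) and Cd40lg (-1.62), and 0 were higher. At 1.5-fold 4 were lower, with Ccr7 (-0.998) and Cd5 (-0.61) added, and 2 were higher, Runx3 (0.85) and Il7r (0.63). The sum of that list was 0.818 times wild type. A sum weights each probe set by its own signal and is given as a description. On the transgenic array the summed signals of all these lists lay between 0.800 and 1.21 times wild type. Single markers differed more there. Cd44 was 3.21-fold higher (1.68), and Cd79a (0.97), Itgam (0.96) and Fcmr (0.63) were higher by over 1.5-fold. S1pr1 (-0.81), Dtx1 (-0.80), Ccr7 (-0.76) and Notch1 (-0.66) were lower by over 1.5-fold. Of the 9 mature single-positive markers, 8 were below wild type on this array. Array values have no true 0, so no marker is at 0. Xist, the transcript that silences an X chromosome in female cells, read 12.49 in wild type, 12.17 in TCF-1-/- and 4.86 in transgenic thymocytes. The transgenic array thus also differs in this sex-linked transcript, and sex cannot be told apart from genotype in its comparisons. Ctnnb1, which encodes β-catenin, was at 11.15 in wild type, 11.39 in the transgenic and 11.16 without TCF-1. The sources used here do not say whether its probes detect the transgene, and the label was not checked by it. The part of these differences in the results below was not tested, and in such mixed suspensions fewer cells of a type and less RNA per cell cannot be told apart. Levels are the deposited values, taken as log2, and many are identical between arrays to the last printed digit: 53.3% of genes are so between transgenic and wild type, and 36.4% between TCF-1-/- and wild type. None of the 9 measured regulators is.

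The first question was how G1 regulators differ without TCF-1. In TCF-1-/- thymocytes E2f2, Cdkn1b and Ccnd2 were lower than in wild type by at least 2-fold, a difference of 1 on the log2 scale, and Ccnd1 was higher. These are 3 of 9 genes lower and 1 of 9 higher. Over all 19938 genes 2.62% were lower and 1.33% were higher by this rule, and among the 9969 genes at or above the median level of 6.90, where all 9 regulators lie, 4.75% and 1.91%. After centring of the arrays on their medians, a shift of 0.13 over genes, Ccnd2 (-0.88) and Cdkn1b (-0.99) are no longer past 2-fold, and 1 regulator is higher and 1 lower. The same centring changes the numbers over all genes from 266 higher and 523 lower to 364 and 405. The median difference of the 9 regulators was -0.17, against 0 over all genes, and their differences ran from -1.79 to 1.23.

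**Figure D1:**
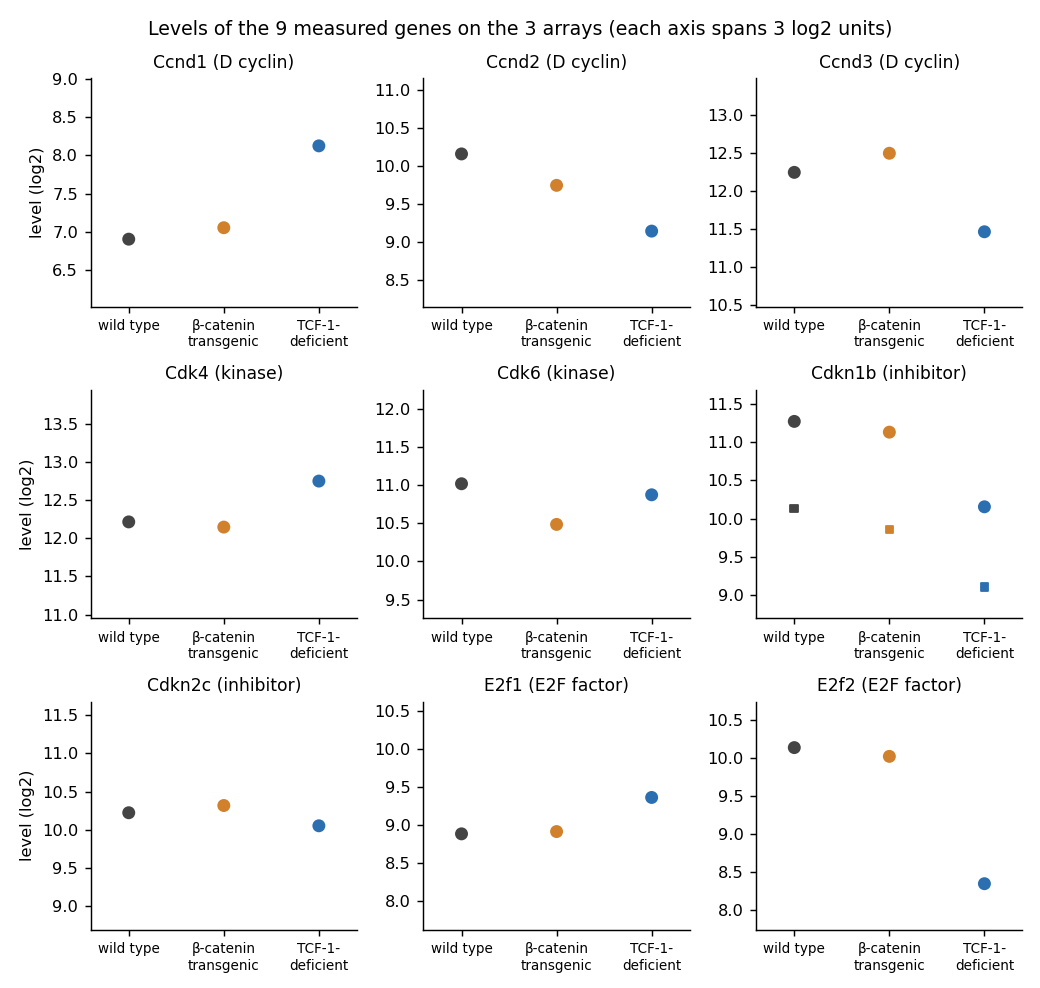
Level (log2, vertical axis) of each measured G1 regulator on the wild type, β-catenin transgenic and TCF-1-/- array, 1 point per array, with every axis spanning the same range. Circles are the probe set used and squares the second probe set of Cdkn1b. E2f2 is at 10.14 in wild type and 8.35 without TCF-1, Ccnd1 is highest on the TCF-1-/- array (8.13), and Ccnd2 and Ccnd3 are lowest there.

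The D cyclins differed in opposite directions on the TCF-1-/- array. Ccnd1, which encodes cyclin D1, was at 6.90 in wild type, 7.05 in the transgenic and 8.13 without TCF-1. It was thus 2.34-fold higher without TCF-1 than in wild type, a log2 difference of 1.23. Its wild type level is close to the median level over genes, so its signal there is low and the size of the fold is uncertain. Ccnd2, which encodes cyclin D2, was at 10.16 in wild type, 9.74 in the transgenic and 9.14 without TCF-1, in the reverse order. The TCF-1-/- array was lower than wild type by 2.02-fold (-1.01), barely past the 2-fold rule. Ccnd3, which encodes cyclin D3, was at 12.25 in wild type, 12.50 in the transgenic and 11.47 without TCF-1. It was 1.72-fold lower without TCF-1 (-0.78), short of 2-fold.

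The log2 differences of Ccnd1 and Ccnd2 lie 2.24 apart in this comparison, and those of Ccnd1 and Ccnd3 2.01 apart, while Ccnd2 and Ccnd3 lie within 0.23 of each other. These distances are between differences, not between levels, since levels of separate probe sets are not on a common scale. The opposite directions of Ccnd1 and of Ccnd2 and Ccnd3 held under quantile normalization and loess. The other 2 alternatives could not reverse them. Each D cyclin has 1 probe set, so averaging probe sets returned the same values. Centring adds the same 0.13 to every gene, less than any of these differences. Ccnd1 ranged from 1.21 to 1.39, Ccnd2 from -1.01 to -0.87 and Ccnd3 from -0.78 to -0.65. Of all 19938 genes, 175 (0.878%) were as far above wild type as Ccnd1, and 510 (2.56%) and 828 (4.15%) as far below it as Ccnd2 and Ccnd3. Among genes at or above the median level the shares were 1.32%, 4.63% and 7.65%.

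On the transgenic array the D cyclins stayed closer to wild type. Ccnd1 differed by 0.15, Ccnd2 by -0.41 and Ccnd3 by 0.25, all short of 1.5-fold. Ccnd2 was lower than wild type on both mutant arrays. Ccnd3 lay below wild type without TCF-1 and above it with the transgene, the direction named in the series' design text, but neither difference reached 2-fold. That direction is not particular to Ccnd3. Among others, the INK4 inhibitors Cdkn2c (-0.17 and 0.10) and Cdkn2d (-0.88 and 0.36) had it. Of the 13 double-positive markers, 13 lay below wild type without TCF-1 and 11 above it with the transgene. Of the D cyclins, Ccnd3 has a promoter window in the RefSeq table (GRCm38.p6), from 250 bases before to 50 after a gene's annotated start. It is shown because it holds a TCF/LEF motif, the letters that TCF-1 and its relatives bind. The window lies at chr17:47504801-47505100 on the plus strand, around the outermost annotated start of the gene, and the match CTTTGTA (in capitals) covers its last bases, 294 to 300, beginning 43 bases after the start.
Ccnd3 promoter: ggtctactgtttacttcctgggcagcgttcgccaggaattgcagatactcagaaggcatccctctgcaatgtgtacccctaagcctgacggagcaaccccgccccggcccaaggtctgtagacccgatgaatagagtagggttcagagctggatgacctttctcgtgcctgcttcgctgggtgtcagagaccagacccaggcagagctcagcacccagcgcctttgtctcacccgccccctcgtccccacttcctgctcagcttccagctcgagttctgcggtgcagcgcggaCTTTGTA
The motif was searched as CTTTG followed by AA, AT, TA or TT, on both strands, and 16.9% of all 32851 promoter windows hold at least 1 match, so a match is common. A second Ccnd3 window, at an inner start, holds none.

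Without TCF-1 the kinases differed less from wild type than the D cyclins did. Cdk4, the main partner of D cyclins in many cells, was at 12.22 in wild type, 12.15 in the transgenic and 12.75 without TCF-1. It was thus 1.45-fold higher without TCF-1 (0.54) and within 0.07 of wild type on the transgenic array. Cdk6, its close relative and a known T cell kinase, was at 11.02 in wild type, 10.49 in the transgenic and 10.88 without TCF-1. Its largest difference was on the transgenic array, 1.45-fold lower than wild type (-0.53), and it was the largest of the 9 regulators in that comparison. As far below wild type there were 0.943% of all genes and 1.46% of genes at or above the median level. Without TCF-1 Cdk6 differed by -0.15. The kinases therefore differed from wild type on different arrays, Cdk4 on the TCF-1-deficient and Cdk6 on the transgenic, with neither reaching 1.5-fold. Among the windows found for the regulators, that of Cdk4 holds the other TCF/LEF match. It is shown for comparison with that of Ccnd3. It lies at chr10:127063285-127063584 on the plus strand, and the match CTTTGAT is on the opposite strand (in capitals as the window reads, bases 199 to 205), its first base at -52 from the annotated start.
Cdk4 promoter: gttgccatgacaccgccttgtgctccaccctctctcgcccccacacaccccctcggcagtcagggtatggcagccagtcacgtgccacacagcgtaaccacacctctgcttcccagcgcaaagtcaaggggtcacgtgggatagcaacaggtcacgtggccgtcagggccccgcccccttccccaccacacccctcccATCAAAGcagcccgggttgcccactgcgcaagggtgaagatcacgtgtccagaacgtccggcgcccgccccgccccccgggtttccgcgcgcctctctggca

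Of the inhibitors, Cdkn1b differed and Cdkn2c hardly did. Cdkn1b was the 1 regulator with a second probe set. The first read 11.28 in wild type, 11.14 in the transgenic and 10.15 without TCF-1. The second read 10.13, 9.85 and 9.10 in the same order. Both sets were lower without TCF-1, by 2.18-fold (-1.12) and 2.04-fold (-1.03), and both were a little below wild type on the transgenic array (-0.14 and -0.28). Cdkn2c, the INK4 inhibitor p18, was at 10.22 in wild type, 10.32 in the transgenic and 10.05 without TCF-1. Its differences from wild type were 0.10 with the transgene and -0.17 without TCF-1.

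The E2F factors differed in opposite directions without TCF-1. E2f2, an activator E2F with a known role in limiting T cell proliferation, was at 10.14 in wild type, 10.02 in the transgenic and 8.35 without TCF-1. It was 3.46-fold lower without TCF-1 than in wild type (-1.79), and 124 of 19938 genes (0.622%) were as far below wild type. Among genes at or above the median level the share was 1.15%. E2f1, the other activator measured, was at 8.88 in wild type, 8.91 in the transgenic and 9.36 without TCF-1, where it was 1.39-fold higher (0.48). The log2 differences of E2f1 and E2f2 lay 2.27 apart without TCF-1, close to the 2.24 of Ccnd1 and Ccnd2, and 0.15 apart with the transgene. E2f2 remained lower by 1.64 to 1.79 under each scaling alternative, and with 1 probe set the averaging of probe sets could not change it.

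The promoter window of E2f2 is shown because E2f2 had the largest difference. Among the windows found for the regulators, it is also the only window that holds an E2F motif, the sequence that E2F factors bind. It lies at chr4:136172024-136172323 on the plus strand, around the outermost annotated start, and the match TTTGGCGC (in capitals) covers bases 290 to 297, beginning 39 bases after the start.
E2f2 promoter: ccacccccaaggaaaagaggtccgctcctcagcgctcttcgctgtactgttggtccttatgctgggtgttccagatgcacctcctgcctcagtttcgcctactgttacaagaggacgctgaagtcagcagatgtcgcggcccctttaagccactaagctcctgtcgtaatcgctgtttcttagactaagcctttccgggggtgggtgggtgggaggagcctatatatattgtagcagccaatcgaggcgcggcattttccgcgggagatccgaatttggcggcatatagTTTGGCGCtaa
The motif was searched as TTTCCCGC, TTTCGCGC, TTTGCCGC and TTTGGCGC on both strands. Of all 32851 windows 2.26% hold a match. Counted by gene with a match in any window, the share was 2.6% of 27025 genes. It was 1 of 8 regulators (12.5%) and 13 of the 29 E2F-regulated S phase genes with a window (44.8%). Windows were found for 8 of the 10 regulators, 12 windows in all, of which 6 lie at the gene's outermost annotated start. Ccnd1 and Ccnd2 have none in the table. E2f1 and Cdk6 have only a window at an inner start, so their outermost starts were not searched. The count over regulators therefore does not show that E2f1 lacks the motif. The E2F match in E2f2 and the TCF/LEF matches in Ccnd3 and Cdk4 were the only matches in the 12 windows. These matches describe letters and say nothing of binding in thymocytes.

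On the transgenic array, 0 of the 9 regulators was past 2-fold or 1.5-fold in either direction. Over all genes 0.15% were higher and 0.0953% lower by 2-fold, and 0.487% and 0.667% by 1.5-fold, so few calls would be found in any list of this length. Of the 9 regulators 4 were above and 5 below wild type, with a median of -0.07 and a range from -0.53 to 0.25. Cdk6 and Ccnd2 were the lowest, and Ccnd3 the highest. The largest differences of the first comparison had no counterpart here: E2f2 differed by -0.12, Cdkn1b by -0.14 and Ccnd1 by 0.15. Both comparisons use the wild type array, so their values are not independent.

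**Figure D2:**
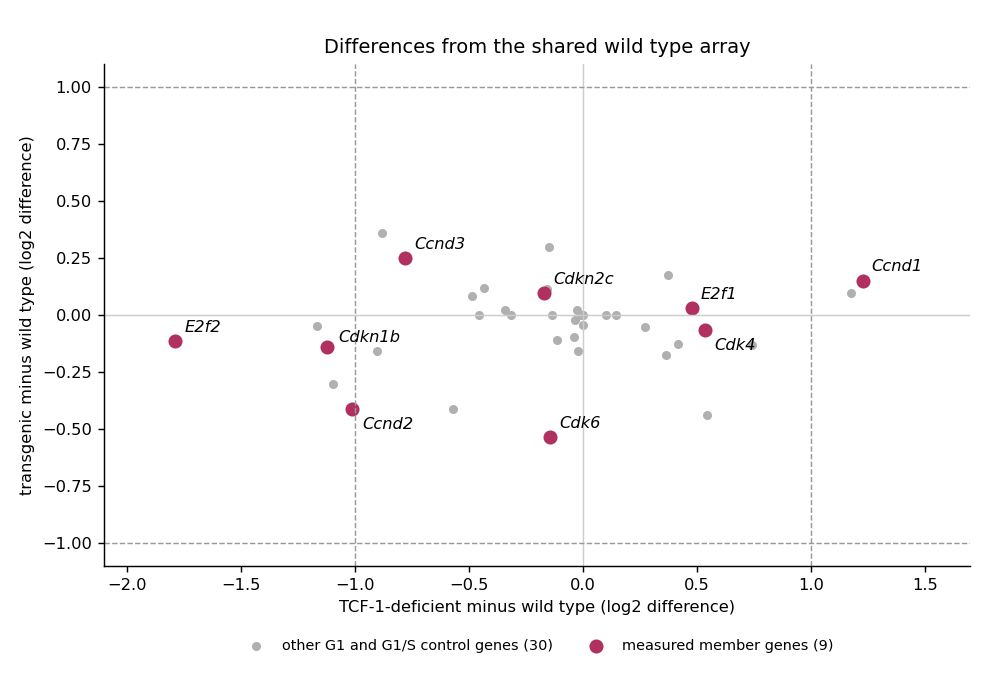
Log2 difference from wild type of each gene without TCF-1 (horizontal axis) and with the transgene (vertical axis), for the 9 measured regulators and 30 other G1 and G1/S control genes; dashed lines mark 2-fold. The regulators spread from -1.79 to 1.23 along the horizontal axis and from -0.53 to 0.25 along the vertical one, and both axes share the wild type array.

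Between the mutant arrays, E2f2 (1.67) and Ccnd3 (1.03) were higher in transgenic than in TCF-1-/- thymocytes by at least 2-fold and Ccnd1 (-1.08) was lower. These are 2 of 9 and 1 of 9 regulators, against 2.45% and 1.57% of all genes. Among the 9969 genes at or above the median level, 463 were higher and 246 lower by this rule. With arrays centred on their medians, Ccnd3 (0.98) falls short of 2-fold. Cdkn1b differed by 0.98, Cdk4 by -0.61 and Ccnd2 by 0.60, and E2f1, Cdk6 and Cdkn2c by less than 1.5-fold. This comparison shares an array with each of the others.

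Other genes of the G1 and G1/S machinery were described from a list of 31, of which 30 were measured. Without TCF-1, Rb1 and Rbl2 were lower by at least 2-fold and Cdkn2a was higher, which is 2 of 30 and 1 of 30. With 4.75% of genes at or above the median level lower and 1.91% higher, these few calls are close to the background. Rb1 encodes the retinoblastoma protein itself and was at 10.92 in wild type, 10.61 in the transgenic and 9.82 without TCF-1. Rbl2 encodes its relative p130, the pocket protein of quiescent cells, and was at 10.08, 10.03 and 8.91. The differences without TCF-1 were -1.09 for Rb1 and -1.17 for Rbl2. Rbl1, which encodes p107, the pocket protein of dividing cells, differed by -0.02 without TCF-1. With arrays centred on their medians Rb1 (-0.96) falls short of 2-fold. Cdkn2a, which encodes p16 and p19ARF, was at 6.86, 6.96 and 8.04, so the TCF-1-/- array was higher by 1.18 from a low wild type level.

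Short of 2-fold, the INK4 inhibitor Cdkn2d (p19) was 1.84-fold lower without TCF-1 (-0.88) and differed by 0.36 with the transgene. The repressor E2f7 was 1.87-fold lower without TCF-1 (-0.90) and its relative E2f8 1.48-fold lower (-0.57). The activator E2f3 was 1.46-fold higher (0.54), as E2f1 was, so among activator E2Fs E2f2 alone was lower. Tfdp1, which encodes the DNA-binding partner DP1 of the E2Fs, differed by 0.42, and Cks1b, a cyclin-dependent kinase subunit that helps destroy p27, by 0.74. On the transgenic array 0 of the 30 was past 1.5-fold. E2f3 (-0.44) and E2f8 (-0.41) were the lowest there. The list's median was -0.04 without TCF-1 and 0 with the transgene. With arrays centred on their medians these become 0.09 and 0.08, where the medians over all genes are 0.13 and 0.08. Under quantile normalization they are 0.10 and 0.06, against 0.16 and 0.08 over all genes. As deposited, the medians over all genes are 0. The sign of the list's median without TCF-1 thus changed along with the median over all genes, so the list has no settled direction of its own.

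Genes that E2F factors switch on for DNA replication showed small shifts. Of 33 measured E2F-regulated S phase genes, 0 was past 2-fold in either comparison with wild type. Without TCF-1, 27 of the 33 were above wild type, 4 below and 2 identical, with a median of 0.39, while among genes at or above the median level 35.4% were above and 45.8% below, with a median of 0. At 1.5-fold, 7 were higher and 0 lower, against 5.88% and 12.7% of genes at or above the median level. The highest were Mcm10, an initiation factor of replication (0.71), and Mcm3 (0.69), Mcm7 (0.63) and Mcm6 (0.60), subunits of the replicative helicase. On the transgenic array 31 of the 33 were below wild type and 1 above, with a median of -0.21, where 37.4% of genes at or above the median level were below and 27.8% above. Pole, a DNA polymerase (-0.53), and Chaf1b, a histone chaperone subunit (-0.46), were the lowest. With arrays centred on their medians the medians were 0.52 and -0.13, with 32 of 33 above wild type without TCF-1 and 27 of 33 below it with the transgene. Centring raises every difference by 0.13 and 0.08 in these comparisons, so the higher count without TCF-1 follows from that constant. On the TCF-1-/- array, where most S phase genes lay above wild type, E2f1, E2f3, Cdk4 and Ccnd1 were also higher. E2f2, Ccnd2, Ccnd3, Cdkn1b, Rb1, Rbl2, E2f7 and E2f8 were lower there, and the double-positive and DN3 marker sums differed as well. A relation of any of these to the S phase genes was not tested.

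Genes of G2 and mitosis shifted less without TCF-1. Of 29 measured, 0 was past 1.5-fold in either comparison with wild type. Without TCF-1, 19 were above and 5 below, with a median of 0.08, and the highest were Cdc25b, a phosphatase that activates CDK1 (0.55), and Mybl2, a transcription factor of the late cell cycle (0.54). On the transgenic array 24 were below and 1 above, with a median of -0.19, and Ttk (-0.44) and Bub1 (-0.43), kinases of the spindle checkpoint, were the lowest. As deposited, 35.4% of genes at or above the median level were above and 45.8% below without TCF-1, and 27.8% and 37.4% with the transgene. With arrays centred on their medians, 27 were above without TCF-1 and 20 below with the transgene, with medians of 0.22 and -0.11. Centring raises every difference by 0.13 without TCF-1 and 0.08 with the transgene, so the rise to 27 comes from that constant. The positive medians of both lists without TCF-1 could not change sign under it, while the negative medians with the transgene kept theirs. None of the genes of either list reached 2-fold against wild type.

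**Figure D3:**
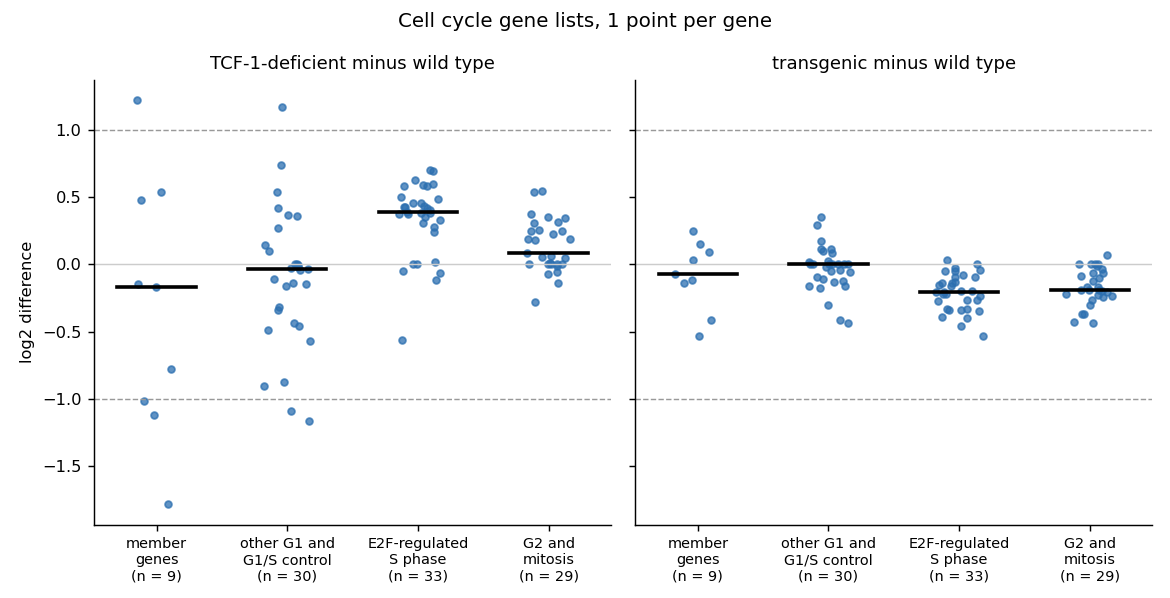
Log2 difference from wild type of each gene (1 point per gene, vertical axis) in 4 lists, without TCF-1 (left) and with the transgene (right); black bars are medians and dashed lines 2-fold. The S phase genes cluster around 0.39 on the left and -0.21 on the right, while the regulators on the left spread from -1.79 to 1.23.

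For each regulator past 2-fold without TCF-1, the genes with the closest pattern were sought among 9488 others, as the smallest Euclidean distance between log2 profiles over the 3 arrays, each centred on its mean. With 3 arrays a pattern holds little information, and many genes lie near each: 73 within a distance of 0.25 of E2f2, 95 of Ccnd1, 255 of Ccnd2 and 346 of Cdkn1b. E2f2 was closest to Rnf130, Nabp1 and Txk, the last a T cell tyrosine kinase, with distances of 0.011 to 0.041. Ccnd1 was closest to Tpi1, a glycolytic enzyme, Cdkn2a and Epb41l5, with distances of 0.042 to 0.054. Cdkn2a, itself a G1 inhibitor, thus followed the profile of Ccnd1. Ccnd2 was closest to Stk17b, Icam2 and Rhof, and Cdkn1b to Dcaf6, Cited2 and Them4.

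**Figure D4:**
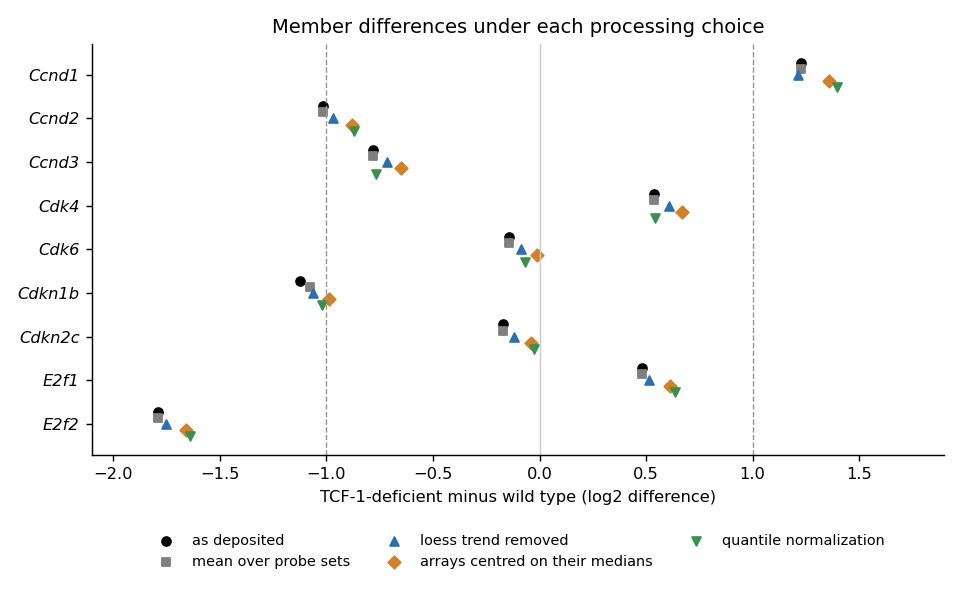
Log2 difference between the TCF-1-deficient and the wild type array (horizontal axis) of each measured regulator, as deposited and under 4 other processing choices, with dashed lines at 2-fold. No regulator changes sign, and Ccnd2 and Cdkn1b lie at the 2-fold line, with Ccnd2 between -1.01 and -0.87. Averaging of probe sets can move Cdkn1b alone.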

How the data were processed

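RNA of thymocytes was hybridised to 3 arrays, 1 per genotype. Per the submitters' processing notes the authors used RMA and Partek. The deposited values are read here as log2, the scale RMA ends in, and run from 1.73 to 14.8. The sources used here give no version, setting, log base or genome build. Of 35556 probe sets, 21789 carry 1 gene symbol in the platform annotation, 1621 several (not used) and 12146 are unnamed here. For 999 genes with several probe sets the one with the highest mean was used. Differences are between 2 arrays, and genes past 2-fold are counted by this rule of size. The number of arrays limits the precision.

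Regulators and lists were chosen with earlier results of these data known. All 9 measured regulators are reported. Of other lists, genes past 2-fold and up to 4 with the largest difference in a comparison with wild type are named. Rbl1 and Tfdp1, which act directly with the E2Fs or their complexes, were added. Alternatives were 1.5-fold and 3-fold, centring, quantile normalization, loess (span 0.3), probe set means and a filter on dim genes. The TCF-1 gene itself was not analysed here. Calculations were tested on simulated data with Python 3.11.15, NumPy 2.4.6, pandas 2.3.3 and statsmodels 0.14.6.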

Additional observations from a re-analysis of the deposited data

How the results depend on the processing

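For the single regulators, 108 differences were recomputed under 4 scaling, trend and probe set alternatives. Of these, 101 kept their direction and their side of 2-fold, 6 crossed the 2-fold line and 1 changed sign. The sign change was Cdk4 on the transgenic array, which became 0.011 with centred arrays. Only Cdkn1b has a second probe set, so averaging probe sets left the other regulators at their main values by construction. Those values count among the 101. The crossings were Ccnd2 without TCF-1 (-0.88 centred, -0.87 by quantile normalization, -0.97 by loess), Cdkn1b without TCF-1 (-0.99 centred), and Ccnd3 between the mutant arrays (0.98 centred, 0.96 by loess). Counts changed with the size rule by its construction: without TCF-1, 3-fold left 0 higher and 1 lower (E2f2). With centred arrays 1 was lower. Between the mutant arrays, regulators higher on the transgenic numbered 4 at 1.5-fold and 1 at 3-fold, and 1 with centred arrays or by loess, while those lower numbered 2 at 1.5-fold and 0 at 3-fold. The median of the G2 and mitosis genes without TCF-1 moved from 0.08 to 0.23 under quantile normalization. The median over all genes moved from 0 to 0.16 in the same step. A change particular to this list was not tested. All measured regulators lie at or above the median level, so leaving out genes under it could change no count of them. No replicate could be left out, with 1 array per genotype. No paired analysis was possible because each genotype has 1 array.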
